A study of Homo sapiens with 8 samples.

Results

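The subunits of the mitochondrial respiratory chain and of ATP synthase that are encoded in the nucleus were followed through RNA-Seq of DU145 prostate cancer cells with and without Esrrb and its synthetic ligand DY131. Members were picked by symbol from the 23391 genes of the deposited table, whatever their values. These were the NDUFA, NDUFB, NDUFC, NDUFS and NDUFV genes of complex I, SDHA to SDHD of complex II, the UQCR genes and CYC1 of complex III, the gene of cytochrome c (CYCS), the COX4I to COX8 genes of complex IV and the ATP5 genes of complex V. The rule gave 87 genes, of which 39 belong to complex I, 4 to complex II, 10 to complex III, 17 to complex IV and 16 to complex V, with CYCS standing on its own. Assembly factors, pseudogenes, ATP5S and ATP5SL, and the read-through genes NDUFC2-KCTD14 and ATP5J2-PTCD1 were left out. Of the 87 members, 80 reached 1 cpm (counts scaled to a library of 1000000) in 2 libraries or more and were tested, among 13856 genes tested in all. The other 7 (UQCRHL, COX4I2, COX6A2, COX7A1, COX7B2, COX8C and ATP5L2) were too low.

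The respiratory chain lies in the inner mitochondrial membrane. Complexes I and II take electrons from NADH and succinate, complex III passes them to cytochrome c, and complex IV gives them to oxygen. Complexes I, III and IV pump protons, and complex V, the ATP synthase, lets the protons flow back and makes ATP. Each complex but the second also holds subunits encoded in mitochondrial DNA, which were not analysed here. Estrogen related receptors bind a short DNA element in the promoters of many of these genes, and the members are well known as their targets in energy-demanding tissues.

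The cell line, DU145, comes from a human prostate cancer, and the study asked what Esrrb and DY131, a compound that activates Esrrb and Esrrg, do to its mRNA profile. DU145-pc3.1 cells carried the empty vector pcDNA3.1-zeo (+) and DU145-Esrrb cells the same vector with Esrrb, both selected with Zeocine and kept as pools of stably transfected cells. Cells of each pool were sequenced untreated or after 3 µM DY131 in medium with charcoal-stripped serum, for a time that the sources used here do not give, with 2 biological replicates in each of the 4 groups. The study states that its cells were grown in charcoal-stripped serum for RNA collection as well as for treatment. In bulk RNA of a pool, fewer cells that express a gene and less RNA per cell cannot be told apart.

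The reads counted on genes were between 7858743 and 11551690 per library, lowest in both libraries of DY131-treated DU145-Esrrb cells (DU145-Esrrb+DY131), whose part in the results was not tested. ESRRB had 99 to 143 counts in the 4 libraries of the DU145-Esrrb pool and 0 to 3 counts in those of DU145-pc3.1. Both DU145-Esrrb+DY131 columns carry one heading and no replicate number, and they are called a and b here. Of the 6 epithelial markers, 5 were tested, and their summed level was between 2503 and 3166 cpm over the libraries, with KRT5 at 0 or 1 count. Of the markers of prostate luminal cells, KLK2 and KLK3 were at 0 in every library and TMPRSS2 had at most 1 count. The 9 markers of fibroblasts, endothelium and leukocytes summed to between 3.26 and 6.82 cpm, with CD3E and DCN among those at 0 in all. Their mean sum was 4.86 cpm in DU145-Esrrb and 3.55 cpm in DU145-Esrrb+DY131 cells, where that of the epithelial markers was 2830 and 3081 cpm. With DY131 in DU145-Esrrb cells, KRT8 had a log2 fold change of 0.38, KRT19 of 0.18, CDH1 of -0.70 (adjusted p = 1.60e-04), EPCAM of -0.28 (adjusted p = 0.00440) and KRT18 of -0.21 (adjusted p = 0.0514). CDH1 also fell with Esrrb alone (-0.54, adjusted p = 0.0114) and with DY131 in DU145-pc3.1 cells (-0.75, adjusted p = 1.11e-04, all by edgeR). Of the tested epithelial markers, only CDH1 passed an adjusted p of 0.05 with Esrrb alone. With DY131 in DU145-pc3.1 cells, KRT19 fell by 0.24 and KRT8 rose by 0.24, while EPCAM and KRT18 did not pass. The part of these markers in the results was not tested.

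The share of all counts that fell on the members was 0.806 and 0.850% in DU145-pc3.1, 0.815 and 0.819% in DU145-Esrrb, 0.774 and 0.796% in DU145-pc3.1+DY131 and 0.631 and 0.649% in DU145-Esrrb+DY131 libraries. The last group was the lowest and did not overlap with any other. Summed over the genes of complex I, the level was 1929 ± 0.0743 cpm in DU145-Esrrb and 1414 ± 29.1 cpm in DU145-Esrrb+DY131 cells (SD, n = 2). The sum of complex V was 3005 ± 9.71 and 2195 ± 26.1 cpm in these groups, and that of complex IV 1196 ± 0.509 and 1016 ± 58.3 cpm. Complex III was at 947 ± 5.62 and 877 ± 14.7 cpm and complex II at 643 ± 12.7 and 625 ± 9.95 cpm, while cytochrome c was at 296 ± 9.53 and 424 ± 5.14 cpm. Sums weigh the most counted genes, above all ATP5B, and are given as a description without a test. Between the libraries of a group, the typical member differed by 0.04 to 0.10 on the log2 scale (median of the absolute log2 ratio of cpm + 0.5 over 80 members).

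**Figure D1:**
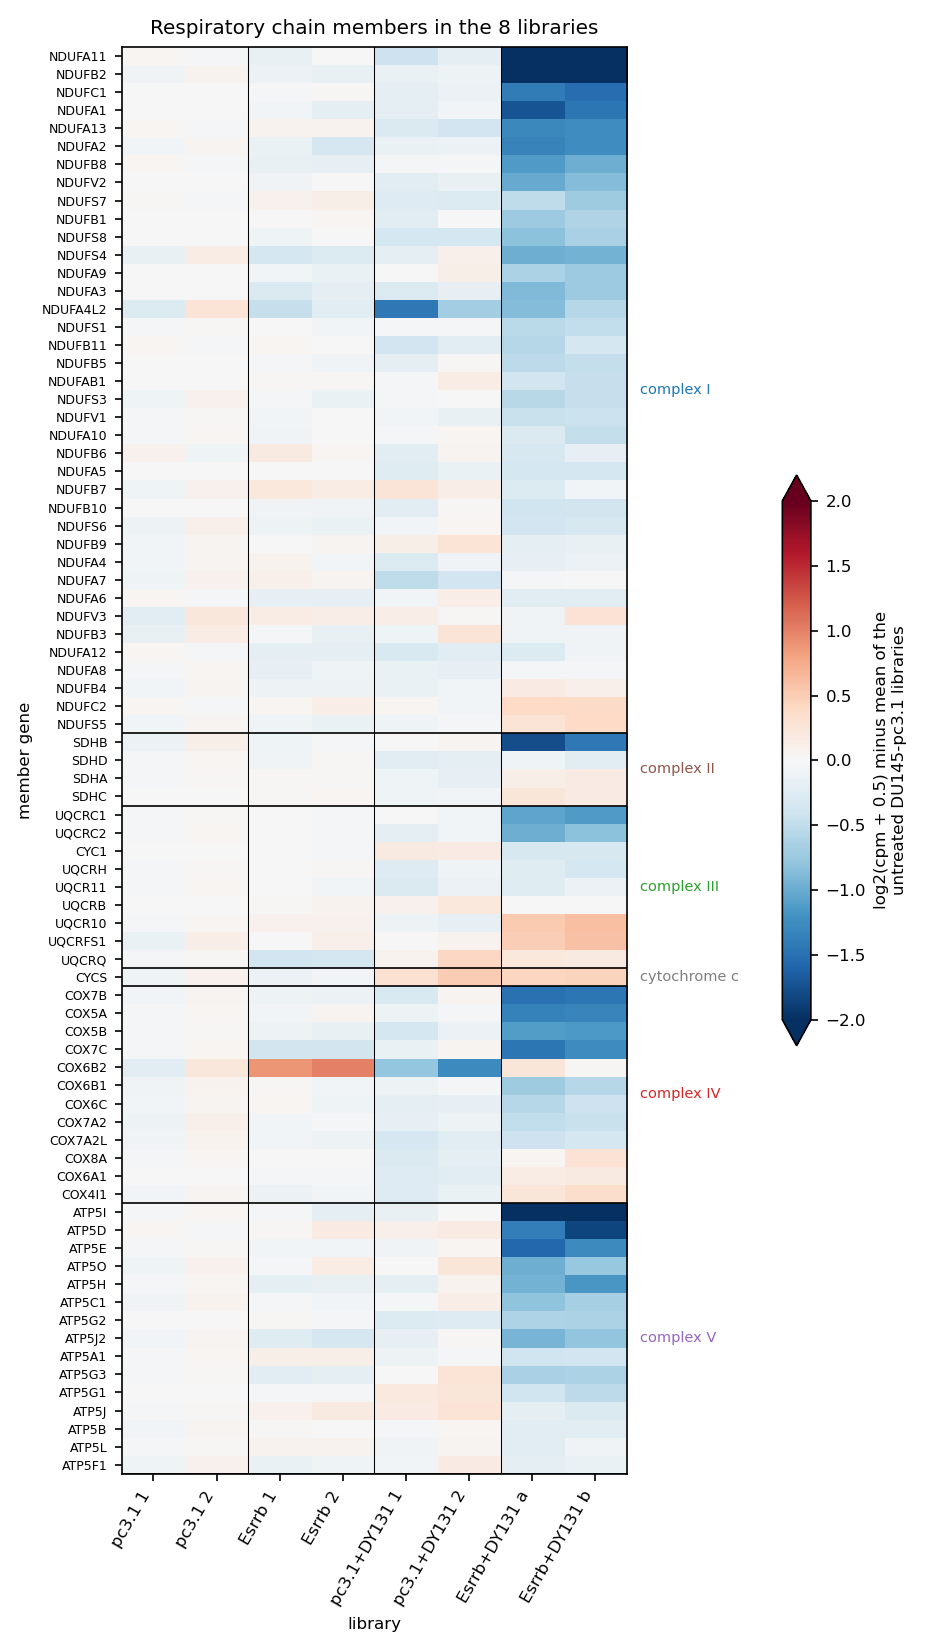
Level of 79 tested members (rows, by complex and then by their change with DY131 in DU145-Esrrb cells) in each of the 8 libraries (columns), as log2(cpm + 0.5) minus the mean of the untreated DU145-pc3.1 libraries. Colours are cut at -2 and 2. Both DU145-Esrrb+DY131 columns are blue for most members of complexes I, IV and V, while CYCS and 3 members of complex III are red there.

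Few members passed the test for Esrrb alone. Between untreated DU145-Esrrb and DU145-pc3.1 cells, 3 of the 80 tested members passed an adjusted p of 0.05 (edgeR quasi-likelihood test, Benjamini-Hochberg over all 13856 genes), against 4.18% of all tested genes. One of them rose and 2 fell. The median log2 fold change of the members was -0.03, against 0.00 over all genes, and no member reached an absolute log2 fold change of 1, the fold change threshold of the study. COX6B2, the testis isoform of a small subunit on the outer face of complex IV, was at 3.82 and 5.37 cpm in DU145-pc3.1 and 8.74 and 9.66 cpm in DU145-Esrrb libraries. It rose by 0.99 on the log2 scale (SE 0.20, adjusted p = 0.0110), and 33.4% of its 50-base windows also occur in another gene, so that its counts are uncertain. The study lists COX6B2 among its Esrrb-altered mRNAs, also with a log2 fold change of 0.99. COX7C, a small subunit in the membrane part of complex IV, was at 179 and 189.7 cpm against 144 and 143 cpm, a log2 fold change of -0.36 (SE 0.07, adjusted p = 0.00850). UQCRQ, a small subunit of complex III, went from 62.5 and 64.8 to 48.7 and 49.8 cpm with a log2 fold change of -0.37 (adjusted p = 0.0353). In each of these 3 genes the libraries of the groups did not overlap, which with 2 libraries a group adds little to the calls. How many of all genes do so was not counted. The call of UQCRQ was lost when only the 6 libraries with a replicate number were fitted. With DESeq2, COX7C alone was called, while 0.895% of all genes rose and 1.39% fell. Leaving out single libraries left between 0 members called, without either DU145-Esrrb library, and 6, without either DU145-pc3.1+DY131 library. In the former fits 0.406 to 0.609% of all genes rose and 0.61 to 0.79% fell. In the latter 4.78 to 4.98% rose and 6.05 to 6.24% fell. The core subunits were not called. NDUFV1, which holds the NADH site of complex I, had a log2 fold change of -0.03 (SE 0.06), SDHA, the flavoprotein of complex II, of 0.02 (SE 0.06), and ATP5B, the catalytic beta subunit of complex V, of 0.02 (SE 0.06). Complex medians lay between -0.04 for complex IV and 0.00 for complex II.

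DY131 in cells without Esrrb moved some members by small amounts. Of the 80 members, 6 rose and 19 fell in DU145-pc3.1 cells, while 18.9% of all genes rose and 18.5% fell (37.4% in either direction). The median of the members was -0.08 on the log2 scale, against 0.00 over all genes. The study, by contrast, reports that DY131 without Esrrb altered no gene. With edgeR's exact test, which the study used, 6 members rose and 18 fell here, without a fold change threshold. Of all genes, 19.1% rose and 19% fell in that fit. The reason for the difference from the study was not tested. With library size alone as the scaling, 2 members rose and 24 fell (16.3 and 21.4% of all genes). Corrected for GC content and transcript length, 9 rose and 8 fell (18.7 and 18.7% of all genes), and with DESeq2 1 rose and 8 fell (13.8 and 11.5% of all genes). Single libraries moved the split as well. Without DU145-pc3.1+DY131 replicate 1, 10 rose and 11 fell, against 21.4 and 18.1% of all genes, and without its replicate 2, 2 rose and 25 fell, against 20 and 20.2%. Without DU145-pc3.1 replicate 1, 1 rose and 11 fell, against 13 and 11.8%, and without its replicate 2, 2 rose and 7 fell, against 13.6 and 13.3%. Past the fold change threshold were 2 members, both downward, against 4.19% of all genes in either direction. NDUFA4L2, a paralog of NDUFA4 known for its induction in hypoxia, was at 1.24 and 2.03 cpm before and 0.280 and 0.793 cpm after treatment, and it fell by 1.61 (SE 0.50, adjusted p = 0.0188), on counts of 13 and 23 against 3 and 8. It was not called with DESeq2, without DU145-pc3.1 replicate 2 or without DU145-pc3.1+DY131 replicate 1. COX6B2 fell from 3.82 and 5.37 to 2.43 and 1.59 cpm, by 1.19 (SE 0.27, adjusted p = 0.00307), and was not called without DU145-pc3.1 replicate 2. CYCS rose the most. The gene of cytochrome c, the mobile carrier that also takes part in apoptosis when released, went from 296 and 333 to 389 and 444 cpm, a rise of 0.41 (SE 0.07, adjusted p = 3.74e-04). The other 5 that rose were UQCRQ, ATP5J, ATP5G1, NDUFB9 and CYC1, by 0.17 to 0.26. In complex IV, COX4I1, COX6A1, COX7A2L and COX8A fell besides COX6B2, by 0.20 to 0.28. All 12 tested genes of complex IV had a negative log2 fold change, with a median of -0.19. In complex I, 1 member rose and 11 fell, with a median of -0.10. The medians were -0.10 in complex II, -0.03 in complex III and 0.00 in complex V.

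With Esrrb present, DY131 lowered most of the respiratory chain. In DU145-Esrrb cells, 56 of the 80 members fell and 11 rose after treatment, while 29.5% of all tested genes fell and 29.2% rose (58.7% in either direction). The median log2 fold change was -0.44 over the members and 0.00 over all genes. For the members it was -0.28 after a correction for exon junctions (described further on) and -0.25 after one for length and GC content. At least a halving, a log2 fold change of -1 or below, was called for 14 members, against 9.04% of all genes, and no member doubled. The medians were -0.58 in complex V, -0.55 in complex IV, -0.45 in complex I, -0.16 in complex III and 0.00 in complex II. The complexes were not compared by a test. From the lowest to the highest member, the log2 fold changes spanned 4.95 in complex V, 2.87 in complex I, 1.76 in complex IV, 1.73 in complex II and 1.65 in complex III.

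**Figure D2:**
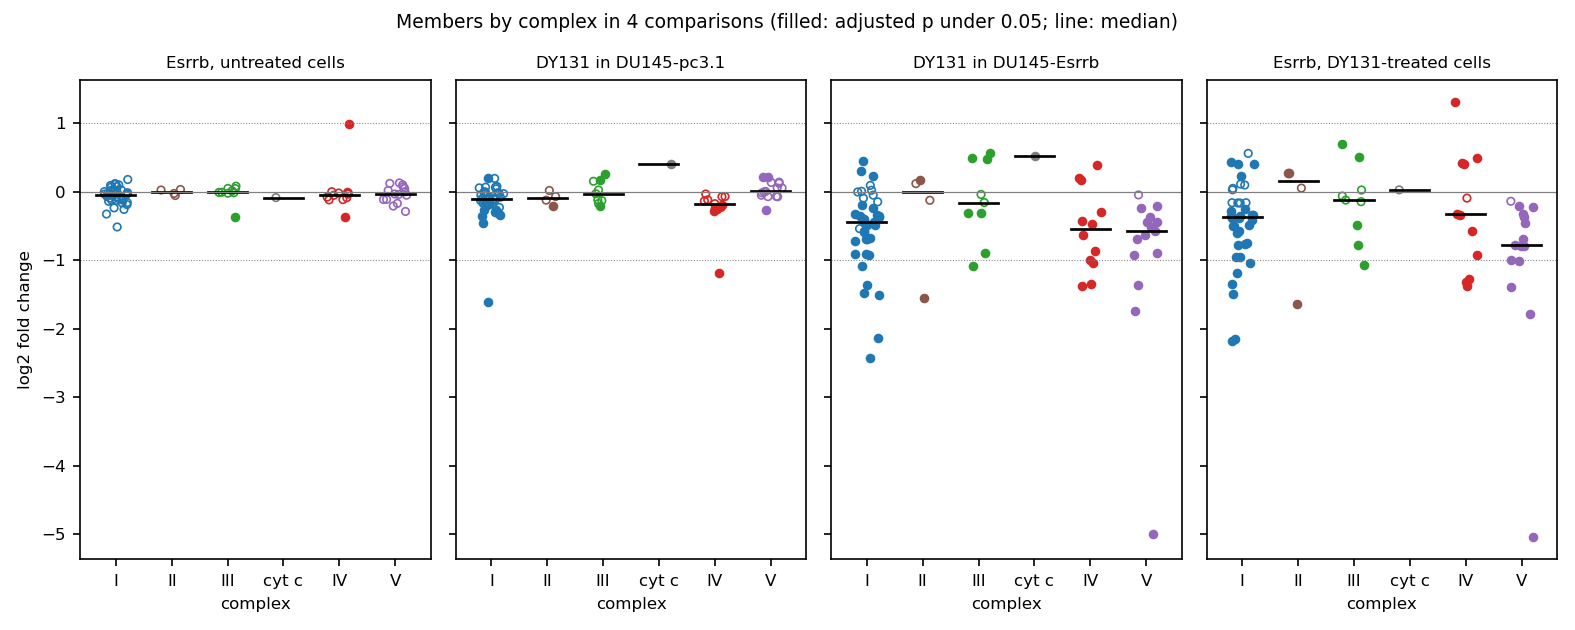
Log2 fold change of each tested member (points) by complex in 4 comparisons. Filled points passed an adjusted p of 0.05, black lines are medians, and dotted lines mark -1 and 1. With DY131 in DU145-Esrrb cells, complex V has no filled point above 0 and a median of -0.58, while complex III has members on both sides.

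Nearly all of complex V fell. Of its 15 tested members, 14 fell and none rose, and ATP5F1, subunit b of the peripheral stalk, had a log2 fold change of -0.05 (SE 0.08, adjusted p = 0.619). ATP5I, subunit e in the membrane part near the dimer interface, was at 34.8 and 37.1 cpm in DU145-pc3.1, 35.1 and 31.3 in DU145-Esrrb, 32.4 and 36.2 in DU145-pc3.1+DY131 and 0.913 and 1.13 in DU145-Esrrb+DY131 libraries. Both DU145-Esrrb+DY131 libraries lay far below the 6 others, with 7 and 10 counts against 414 and 340 in DU145-Esrrb. It fell by 4.997 (SE 0.20, adjusted p = 2.68e-11), the largest change of all members. The gene (NM_007100) lies on chromosome 4 from 672436 to 674338 in GENCODE 29 on GRCh38. ATP5D, the delta subunit of the central stalk, was at 35.3 and 33.5 cpm in DU145-pc3.1, 34.97 and 38.7 in DU145-Esrrb, 36.7 and 38.8 in DU145-pc3.1+DY131 and 12.9 and 9.27 in DU145-Esrrb+DY131 libraries. It fell by 1.74 (SE 0.13, adjusted p = 3.05e-08). ATP5E, the epsilon subunit of the same stalk, fell by 1.36 from 168 ± 0.0729 to 65.0 ± 9.64 cpm (SD, n = 2). ATP5C1, the gamma subunit that turns inside the catalytic head, fell by 0.69 (adjusted p = 1.73e-06). Both genes of the catalytic head were called as falling, but these calls and that of ATP5C1 were lost after the junction correction described further on, with corrected values of -0.13 for ATP5A1, -0.03 for ATP5B and -0.12 for ATP5C1. ATP5A1, subunit alpha, was at 398 and 416 cpm in DU145-pc3.1, 442 and 444 in DU145-Esrrb, 379 and 395 in DU145-pc3.1+DY131 and 309 and 312 in DU145-Esrrb+DY131 libraries and fell by 0.51 (SE 0.06). ATP5B was at 1126 and 1223 cpm in DU145-pc3.1, 1193 and 1186 in DU145-Esrrb, 1157 and 1200 in DU145-pc3.1+DY131 and 1007 and 1006 in DU145-Esrrb+DY131 libraries and fell by 0.24 (SE 0.06, adjusted p = 0.00202). The 3 genes of the c-ring, which encode the same mature protein, were all called, with log2 fold changes of -0.43 for ATP5G1, -0.63 for ATP5G2 and -0.44 for ATP5G3 (SE 0.08, 0.06 and 0.09). After the junction correction ATP5G1 was at 0.09 and no longer called, while ATP5G2 and ATP5G3 stayed called at -0.69 and -0.35. In DU145-pc3.1 cells the same 3 genes had log2 fold changes of 0.22, -0.26 and 0.14, of which the first was called as a rise and the second as a fall. In the peripheral stalk, ATP5O fell by 0.92, ATP5H by 0.89 and ATP5J by 0.37. ATP5O shares 69.0% of its windows with another gene and is uncertain. The membrane subunits ATP5J2 and ATP5L fell by 0.58 and 0.21, and the junction correction turned ATP5J2 into a called rise of 0.37.

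In complex I, 28 of 39 members fell and 3 rose. The 6 that at least halved are all accessory subunits, which surround the catalytic core. NDUFA11, a subunit of the membrane arm, was at 52.2 and 49.4 cpm in DU145-pc3.1, 46.0 and 50.9 in DU145-Esrrb, 38.1 and 44.1 in DU145-pc3.1+DY131 and 10.2 and 8.03 in DU145-Esrrb+DY131 libraries. The DU145-Esrrb+DY131 libraries were the lowest, and it fell by 2.42 (SE 0.13, adjusted p = 7.95e-10). NDUFB2 was at 35.02 and 38.6 cpm in DU145-pc3.1, 33.7 and 33.1 in DU145-Esrrb, 33.6 and 34.3 in DU145-pc3.1+DY131 and 7.82 and 7.46 in DU145-Esrrb+DY131 libraries, and it fell by 2.13 (SE 0.12, adjusted p = 1.36e-09). It lies on chromosome 7 from 140690777 to 140722790, and none of its windows occur in another gene. NDUFC1, NDUFA1, NDUFA13 and NDUFA2 fell by 1.504, 1.48, 1.36 and 1.08. NDUFA13, which is also known as a cell death regulator, shares 41.3% of its windows with another gene. None of the core subunits halved. NDUFS7, which carries the last iron-sulfur cluster before ubiquinone, fell by 0.73 (SE 0.10). NDUFS1 and NDUFV1 of the NADH-oxidizing module fell by 0.49 and 0.40, calls that the junction correction did not keep (SE 0.07 and 0.06), and NDUFV2 of the same module by 0.90. The last shares 82.0% of its windows with another gene. Another 17 members of complex I fell by 0.19 (NDUFB9) to 0.90 (NDUFB8). The 8 that were not called lay between -0.54 (NDUFA4L2) and 0.09 (NDUFA8), a subunit on the intermembrane side. NDUFS5, an accessory subunit on the intermembrane side, ran the other way, with 56.6 and 53.8 cpm before and 71.8 and 78.6 cpm after treatment and a rise of 0.45 (SE 0.08, adjusted p = 1.35e-04). NDUFC2, the partner of NDUFC1 in the membrane arm, rose by 0.30 and NDUFB4 by 0.23, and both rises were lost with DESeq2 and after the junction correction. NDUFA4, counted here by its symbol but now known as a subunit of complex IV, had a log2 fold change of -0.15 (adjusted p = 0.140). Moving it to complex IV gave that complex a median of -0.47 and left complex I at -0.45.

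Complex II, which has 4 subunits and is also the succinate dehydrogenase of the citric acid cycle, changed in 1 subunit strongly. SDHB, the iron-sulfur subunit, was at 67.4 and 78.8 cpm in DU145-pc3.1, 68.9 and 71.9 in DU145-Esrrb, 72.3 and 75.9 in DU145-pc3.1+DY131 and 20.9 and 26.7 in DU145-Esrrb+DY131 libraries. It fell by 1.56 (SE 0.11, adjusted p = 1.43e-08), and the gene lies on chromosome 1 from 17018722 to 17054170. SDHA, to which SDHB is bound, was at 199.5 and 206 cpm in DU145-pc3.1, 206 and 207 in DU145-Esrrb, 192 and 180.3 in DU145-pc3.1+DY131 and 221 and 227 in DU145-Esrrb+DY131 libraries. Its log2 fold change of 0.12 (SE 0.06, adjusted p = 0.0834) did not pass the main test. It was called as a rise under 6 alternatives, among them the 3 corrections for exon structure, length and GC content, with 0.45 after the junction correction, and 22.3% of its windows occur in another gene, such as the pseudogene SDHAP3. Of the membrane anchors, SDHC rose by 0.17 (SE 0.06, adjusted p = 0.0142), and SDHD had a log2 fold change of -0.13 (adjusted p = 0.103). SDHD was called as a fall under 6 alternatives, among them library size alone and the junction correction. The rise of SDHC was lost with library size alone and without either DU145-Esrrb library or DU145-Esrrb+DY131 library a.

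Complex III moved both ways. Both core proteins fell, UQCRC1 from 129 and 128 to 62.2 and 59.1 cpm (log2 fold change -1.09, SE 0.06, adjusted p = 3.02e-09) and UQCRC2 from 140.5 and 138 to 71.1 and 78.9 cpm (log2 fold change -0.89, SE 0.07). UQCRFS1, the Rieske iron-sulfur protein of the complex, was at 149.7 and 179 cpm in DU145-pc3.1, 164 and 175 in DU145-Esrrb, 163 and 171 in DU145-pc3.1+DY131 and 229 and 246 in DU145-Esrrb+DY131 libraries. It rose by 0.49 (SE 0.08, adjusted p = 5.32e-05), and both treated DU145-Esrrb libraries were above the 6 others. The rise was lost after the junction correction on coding windows. The small subunits UQCR10 and UQCRQ rose by 0.48 and 0.56, and the rise of UQCR10 was lost after the same correction. UQCRQ was at 62.5 and 64.8 cpm in DU145-pc3.1, 48.7 and 49.8 in DU145-Esrrb, 67.2 and 85.0 in DU145-pc3.1+DY131 and 73.8 and 71.8 in DU145-Esrrb+DY131 libraries, so that untreated DU145-Esrrb was its lowest group. CYC1, cytochrome c1, fell by 0.31 (SE 0.06), and UQCRH, the hinge protein, by 0.31, both calls being lost after the junction correction. UQCRB and UQCR11 were not called, at -0.04 and -0.16. CYCS rose from 289 and 303 to 421 and 428 cpm, by 0.52 (SE 0.07, adjusted p = 1.63e-05). Its levels in the DY131-treated libraries of the 2 pools overlapped.

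Complex IV had 9 members that fell and 3 that rose, so that all 12 tested genes were called. COX5A, which sits on the matrix side, was at 93.1 and 99.0 cpm in DU145-pc3.1, 92.4 and 99.8 in DU145-Esrrb, 89.8 and 92.9 in DU145-pc3.1+DY131 and 37.2 and 38.3 in DU145-Esrrb+DY131 libraries. It fell by 1.35 (SE 0.08, adjusted p = 1.68e-09), and its DU145-Esrrb+DY131 libraries did not overlap with the rest. COX5B, a zinc-binding subunit on the same side, fell by 1.04, COX7B by 1.37 and COX7C by 0.99 (SE 0.10, 0.11 and 0.08). COX4I1, the largest of the nuclear-encoded subunits, was at 208 and 227 cpm in DU145-pc3.1, 200.1 and 209 in DU145-Esrrb, 182 and 197 in DU145-pc3.1+DY131 and 256 and 278 in DU145-Esrrb+DY131 libraries. It rose by 0.38 in DU145-Esrrb cells (SE 0.07, adjusted p = 1.24e-04), whereas it fell by 0.20 in DU145-pc3.1 cells (adjusted p = 0.0273), a call that was lost with DESeq2 and under 4 other alternatives. COX6A1 and COX8A, the widespread isoforms of their subunits, did the same. They rose by 0.20 and 0.18 in DU145-Esrrb cells and fell by 0.25 and 0.24 in DU145-pc3.1 cells. The rise of COX8A (adjusted p = 0.0486) was lost under 10 of the alternatives, among them DESeq2 and edgeR's exact test, and that of COX6A1 without DU145-Esrrb+DY131 library b. Their falls in DU145-pc3.1 cells were lost under the length and GC correction, and that of COX8A also without DU145-pc3.1 replicate 2.

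**Figure D3:**
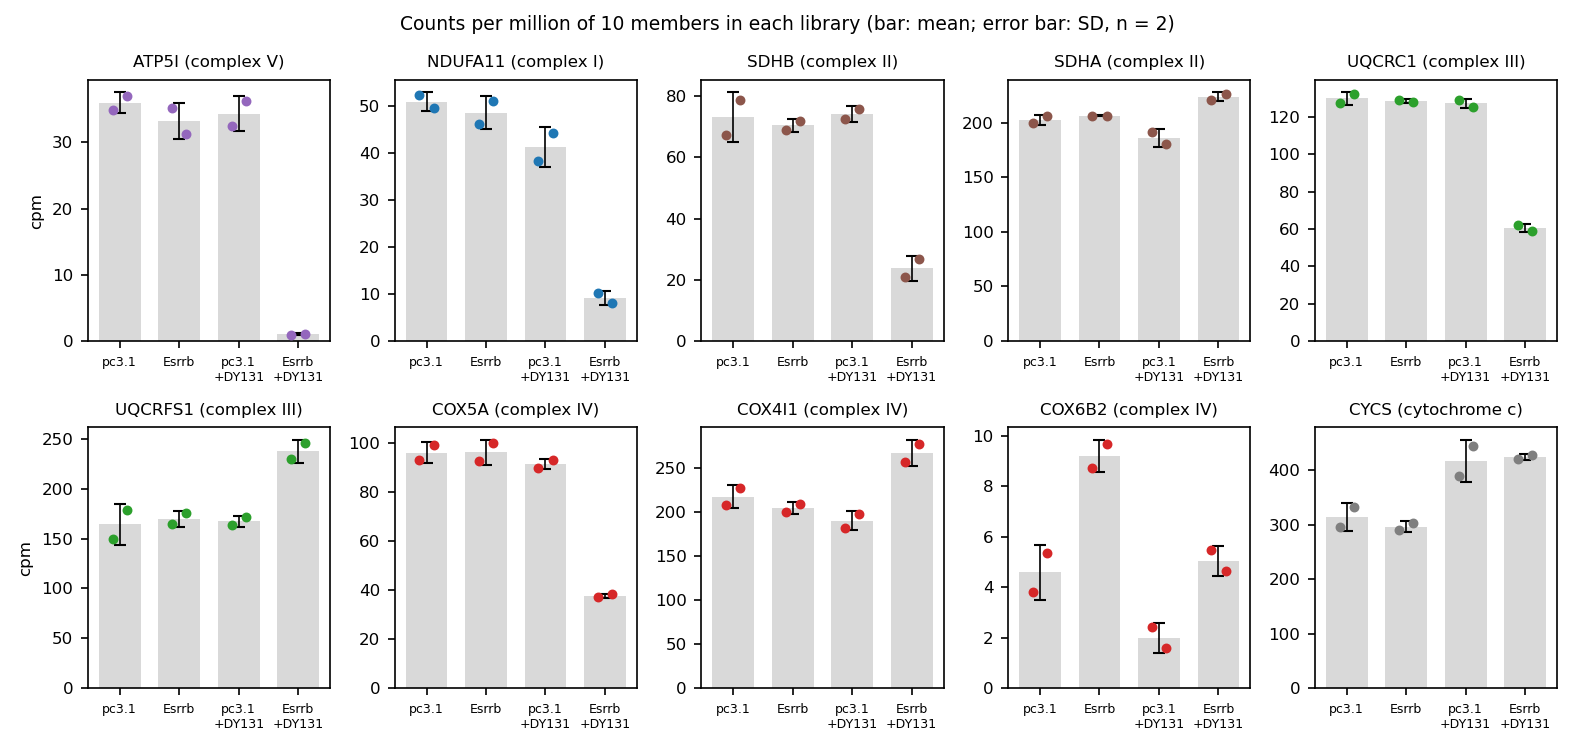
Level in cpm of 10 members in the 4 groups. Points are libraries, bars are means and error bars are SD (n = 2), on axes that start at 0. ATP5I, NDUFA11, SDHB, UQCRC1 and COX5A are low in both DU145-Esrrb+DY131 libraries, while UQCRFS1 and COX4I1 are highest there and CYCS is high in both DY131-treated groups.

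Most tissue isoforms of complex IV were at or near 0. COX4I2, the lung and hypoxia isoform, COX6A2, the heart and muscle isoform, and COX7B2 had 0 counts in all 8 libraries, which allows up to 0.255 to 0.391 cpm in a library (a count of 3, for counting error only). COX7A1, the muscle isoform, had 0 to 2 counts, and COX8C, found in testis, 0 to 5 counts. Their partners COX4I1, COX6A1, COX7B, COX7A2 and COX8A were all tested. COX6C, which has no isoforms, fell by 0.47 and COX7A2 by 0.43 with DY131 in DU145-Esrrb cells, and COX7A2L, a related protein that helps to join complexes III and IV, by 0.30. COX6B1, the common isoform, was at 93.0 and 102 cpm in DU145-pc3.1, 98.3 and 94.1 in DU145-Esrrb, 91.0 and 94.5 in DU145-pc3.1+DY131 and 59.1 and 65.4 in DU145-Esrrb+DY131 libraries, and it fell by 0.63 (adjusted p = 3.90e-06). Its testis partner COX6B2 was at 3.82 and 5.37 cpm in DU145-pc3.1, 8.74 and 9.66 in DU145-Esrrb, 2.43 and 1.59 in DU145-pc3.1+DY131 and 5.48 and 4.63 in DU145-Esrrb+DY131 libraries, high in untreated DU145-Esrrb and lowest in DU145-pc3.1+DY131 libraries.

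Reads that cross an exon junction are harder to place than reads within an exon, so the members were set beside genes of like exon structure. All stretches of 50 bases, the read length, were laid along the GENCODE 29 transcript of a gene, and the percentage that cross a junction was its junction share. All 80 tested members had a value, with a median of 20.3% against 14.3% over 13700 tested genes. The medians of the complexes were 29.9% in complex V, 23.6% in complex II, 22.5% in complex III, 20.3% in complex I and 17.4% in complex IV. The log2 fold change of DY131 in DU145-Esrrb cells went down as the share went up, with a Spearman's correlation of -0.38 over the 80 members and -0.37 over all genes with a value. In DU145-pc3.1 cells these values were 0.05 and 0.01. The points share the same libraries, and the values are given as a description. Tested genes were sorted by this share into 20 bins of 685 genes, and each member was set against the median of its bin. Of the 80 members, 59 lay below their bin and 21 above, with a median difference of -0.29 on the log2 scale. The median of the bin values themselves was -0.10, beside -0.44 for the members. Against their bins, the medians were -0.47 in complex IV, -0.29 in complex V, -0.26 in complex I, -0.17 in complex III and 0.02 in complex II. Complex V, which had the largest fall before, came second here. Among the lowest 10% of their bins lay 15 of the 80 members. These were the 14 that at least halved, except UQCRC1, together with COX7C and COX6B2. Among the highest 20% lay 4 members, UQCRQ, COX4I1, NDUFS5 and SDHA. A smooth correction for the junction share left 44 members falling and 11 rising, against 25% and 28.6% of all genes in the same fit, with a median of -0.28, and 40 of the 44 had also fallen without it. Of the 14 that at least halved, 12 stayed past the threshold, while UQCRC1 came to -0.72 and COX5B to -0.89. By complex, 20 fell and 2 rose in complex I, 2 and 2 in complex II, 4 and 3 in complex III, 9 and 2 in complex IV and 9 and 1 in complex V. NDUFS1 and ATP5G1 turned to 0.03 and 0.09 and were no longer called, as was the case for ATP5A1, ATP5B, ATP5C1, NDUFV1 and CYC1. With the share taken over the coding sequence alone, 48 fell and 9 rose, against 29.9% and 25.5% of all genes.

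**Figure D4:**
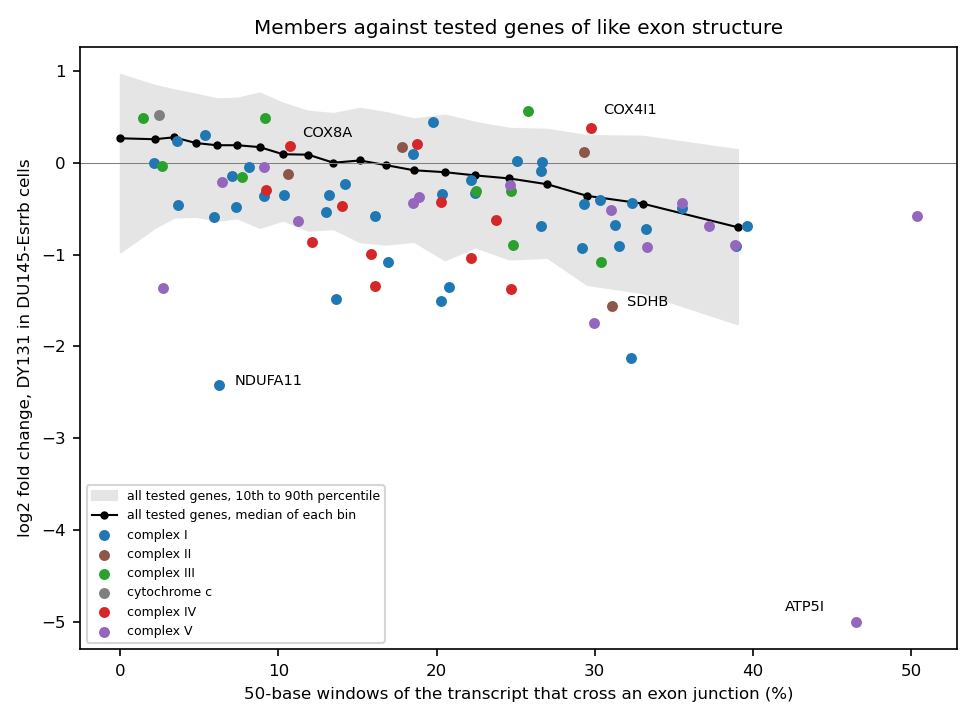
Log2 fold change of DY131 in DU145-Esrrb cells against the percentage of 50-base transcript windows that span an exon junction. Coloured points are members, the black line joins the medians of 20 bins of all tested genes, and the grey band runs from their 10th to their 90th percentile. The bin medians go from 0.27 to -0.70, and ATP5I and NDUFA11 lie well below the band.

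ATP5I and COX8A show this structure side by side, since their coding sequences have the same length, 207 bases without the stop codon. This pair was chosen after its values were seen. Capitals mark the 3 bases on either side of each exon junction in the GENCODE 29 transcripts on GRCh38.
ATP5I: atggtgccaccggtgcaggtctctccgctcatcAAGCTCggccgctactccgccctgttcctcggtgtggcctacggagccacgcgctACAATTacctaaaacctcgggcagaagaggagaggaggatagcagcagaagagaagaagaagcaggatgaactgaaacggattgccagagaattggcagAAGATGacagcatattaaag
COX8A: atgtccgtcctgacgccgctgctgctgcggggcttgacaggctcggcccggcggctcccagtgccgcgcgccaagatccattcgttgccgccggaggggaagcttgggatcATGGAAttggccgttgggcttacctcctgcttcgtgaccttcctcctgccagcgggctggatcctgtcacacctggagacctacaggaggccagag
The coding sequence of ATP5I is cut by 3 junctions, which 64.6% of its 50-base windows cross, and that of COX8A by 1 junction with 31.0%. The first fell by 4.997 and the second rose by 0.18. The bins and the smooth correction use the share over the whole transcript, not these coding shares. Relative to their bins, ATP5I was at -4.30 and COX8A at 0.09, and after the correction ATP5I was at -4.16. COX8A lies on chromosome 11 from 63974607 to 63976543.

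The response to DY131 differed between the pools. In the interaction of DY131 with Esrrb, fitted over all 8 libraries, 54 of 80 members passed an adjusted p of 0.05, against 33.7% of all genes. Of these, 45 had a lower log2 fold change in DU145-Esrrb than in DU145-pc3.1 cells (17.6% of all genes) and 9 a higher one (16.1% of all genes). A difference of -1 or below was called for 13 members, against 4.74% of all genes. By complex, the lower ones were 22 of 39 in complex I, 1 of 4 in complex II, 3 of 9 in complex III, 6 of 12 in complex IV and 13 of 15 in complex V. ATP5I (-4.93), NDUFA11 (-2.12), NDUFB2 (-2.01), ATP5D (-1.88) and SDHB (-1.58) were at the low end. UQCR10 had the highest value that passed, 0.61 (SE 0.10, adjusted p = 3.51e-04), and COX4I1 came next with 0.58. CYCS, with 0.41 in one pool and 0.52 in the other, had an interaction of 0.11 (SE 0.10, adjusted p = 0.414), and that of COX6B2 was 0.32 (SE 0.35, adjusted p = 0.516). With DESeq2, 36 members were lower and 6 higher, and after the junction correction 30 were lower and 12 higher, of which 28 and 7 had the same call without it. Of all genes, 12.1% were lower and 8.79% higher with DESeq2, and 10.7% and 12.2% after that correction. The interaction of UQCRFS1 was lost under both junction corrections, and that of UQCR10 on coding windows. Taking the calls of the pools together, 41 members (51.2%) fell with DY131 in DU145-Esrrb cells and were not called in DU145-pc3.1 cells, which 15.8% of all tested genes did. Of these 41, 34 passed the interaction, as did 60.8% of all genes in that class. Another 11 members fell in both pools (13.8%, against 11.6% of all genes). Of their falls in DU145-pc3.1 cells, those of NDUFV2, NDUFS7, NDUFA5 and NDUFB11 were lost under 17, 15, 13 and 6 alternatives. The others were lost under at most 4. ATP5G1, ATP5J, CYC1 and NDUFB9 were called as rising in DU145-pc3.1 and falling in DU145-Esrrb cells (5%, against 2.08% of all genes), and COX4I1, COX6A1 and COX8A as the reverse (3.75% against 1.17%). All 7 passed the interaction, as did all genes of these classes. The rises of the first 4 in DU145-pc3.1 cells were lost with DESeq2 and under 3 to 10 other alternatives each. CYCS and UQCRQ rose in both pools (2.5% against 11.9%), the rise of UQCRQ in DU145-pc3.1 cells being lost under 11 alternatives.

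**Figure D5:**
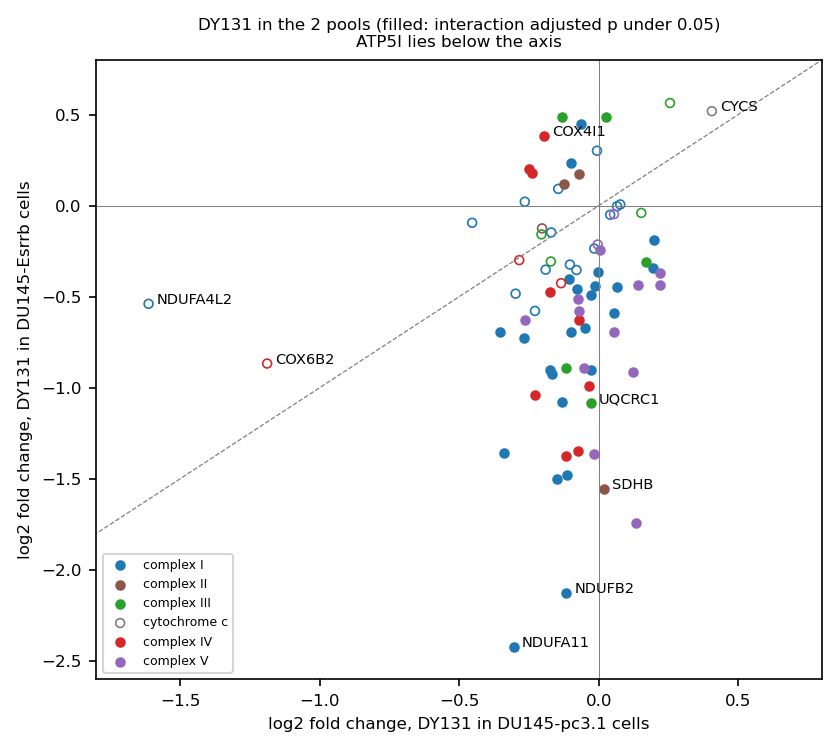
Log2 fold change of DY131 in DU145-Esrrb cells (vertical) against that in DU145-pc3.1 cells (horizontal) for the tested members other than ATP5I, which lies below the axis. Filled points passed the interaction at an adjusted p of 0.05, and the dashed line marks equal changes. Most points lie within 0.5 of 0 on the horizontal axis and below 0 on the vertical one.

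Compared at the same treatment, DY131-treated DU145-Esrrb cells had 51 members lower and 12 higher than DY131-treated DU145-pc3.1 cells, where 25.3% of all genes were lower and 25.1% higher (50.4% in either direction). The median of the members was -0.36. At least a halving was called for 15, against 6.06% of all genes. This comparison, the one of DY131 in DU145-Esrrb cells and the interaction all use the same DU145-Esrrb+DY131 libraries. Complex V had a median of -0.78 with 14 of 15 lower, complex I of -0.36, complex IV of -0.33, complex III of -0.12 and complex II of 0.16. SDHA and SDHC were higher by 0.27 and 0.28 (SE 0.06 and 0.06), while SDHB was lower by -1.63 on the log2 scale (SE 0.11). UQCR10 was higher by 0.70, UQCRFS1 by 0.51 and COX6B2 by 1.31, the last being the only member that doubled. The call of UQCRFS1 was lost under both junction corrections. After the junction correction 43 members were lower and 11 higher, against 17.7% and 21.2% of all genes. CYCS had a log2 fold change of 0.03 (SE 0.07).

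Of 36 assembly factors, all tested, 9 rose and 13 fell with DY131 in DU145-Esrrb cells, against 29.2% and 29.5% of all genes, and their median was -0.05. In DU145-pc3.1 cells 6 rose and 7 fell, against 18.9% and 18.5%. As shares of the 36, these counts are near those over all genes. Esrrb alone changed none at an adjusted p of 0.05 in edgeR's test. COX17, which carries copper to complex IV, was at 11.9 and 15.2 cpm in DU145-pc3.1, 12.4 and 13.7 in DU145-Esrrb, 16.3 and 14.6 in DU145-pc3.1+DY131 and 2.22 and 3.84 in DU145-Esrrb+DY131 libraries. It fell by 2.08 (adjusted p = 1.44e-06) in DU145-Esrrb cells. SURF1, needed early in complex IV assembly, fell by 1.00 there and by 0.52 in DU145-pc3.1 cells. NDUFAF2, a chaperone of complex I, fell by 0.65. BCS1L, which inserts the Rieske protein UQCRFS1 into complex III, rose by 0.59 in DU145-Esrrb and 0.53 in DU145-pc3.1 cells. ATPAF1 and TMEM70, which help to assemble complex V, rose by 0.32 and 0.50, while the other ATPAF gene, ATPAF2, fell by 0.78. In DU145-pc3.1 cells ATPAF2 fell by 0.77, and ATPAF1 and TMEM70 were not called. Of 5 further genes listed beside complex V, USMG5, a small membrane protein of the ATP synthase dimer, was at 49.8 and 59.4 cpm in DU145-pc3.1, 51.0 and 53.5 in DU145-Esrrb, 52.7 and 57.5 in DU145-pc3.1+DY131 and 9.91 and 8.48 in DU145-Esrrb+DY131 libraries. It fell by 2.51 (adjusted p = 4.96e-10), and ATPIF1, the inhibitor protein, fell by 0.31 there and by 0.37 in DU145-pc3.1 cells. C14orf2 rose by 0.32, and ATP5S had a log2 fold change of -0.05 (adjusted p = 0.672). ATP5SL, a relative of ATP5S that is not a subunit of complex V, rose by 0.36.

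Among 14 listed regulators of these genes, 13 were tested. With DY131, 5 rose and 2 fell in DU145-Esrrb cells, against 29.2% and 29.5% of all genes, and 3 rose in DU145-pc3.1 cells, against 18.9%. After DY131, 3 were higher and 5 lower in DU145-Esrrb than in DU145-pc3.1 cells, against 25.1% and 25.3%. With 13 genes these counts do not set the list apart from all genes. PPARGC1B, a coactivator of the estrogen related receptors, rose by 1.19 there and by 1.43 in DU145-pc3.1 cells. PPRC1, of the same family, rose by 0.70 and 0.45, and TFAM, which packs mitochondrial DNA, by 0.31 and 0.24. YY1 and MTERF rose by 0.41 and 0.34 in DU145-Esrrb cells and were not called in DU145-pc3.1 cells. POLRMT, the mitochondrial RNA polymerase, fell by 0.36 and TFB1M, which methylates mitochondrial rRNA, by 0.54 in DU145-Esrrb cells. ESRRA, the relative of Esrrb most often tied to these genes, was at 41.9 and 41.1 cpm in DU145-pc3.1, 41.6 and 44.1 in DU145-Esrrb, 44.7 and 41.6 in DU145-pc3.1+DY131 and 44.6 and 42.0 in DU145-Esrrb+DY131 libraries, and its log2 fold change with DY131 in DU145-Esrrb cells was 0.01 (adjusted p = 0.894). PPARGC1A had at most 2 counts in any library.

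The DNA element of the estrogen related receptors, TNAAGGTCA, was looked for on both strands in the 250 bases before and 50 bases after the gene starts of RefSeq on GRCh38.p14. Promoters were at hand for 67 of the 80 tested members and 15843 protein-coding genes in all. The latter were not limited to tested genes, so the shares below are over unlike sets. The element was in 2 of the 67 (2.99%), NDUFB4 and SDHD, and in 0.638% of all promoters. In NDUFB4 it stands 32 bases before the start, on the strand of the gene (chr3:120596275-120596323, plus strand, element in capitals).
NDUFB4 promoter: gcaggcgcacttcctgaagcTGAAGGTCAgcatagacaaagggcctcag
NDUFB4 rose by 0.23 with DY131 in DU145-Esrrb cells (SE 0.08, adjusted p = 0.0156) and was not called in the other pool, where its log2 fold change was -0.10. This rise was lost under 7 alternatives, among them DESeq2 and both junction corrections. SDHD had a log2 fold change of -0.13 (adjusted p = 0.103) in DU145-Esrrb cells and fell by 0.20 in DU145-pc3.1 cells (adjusted p = 0.0187). The fall of SDHD was lost with DESeq2, with only the groups compared and without DU145-pc3.1 replicate 2. The other motifs were CCGGAAGT of ETS factors, in 13.4% of the members and 6.19% of all promoters, CGCATGCG of NRF1, in 14.9% and 2.88%, and AAGATGGC of YY1, in 16.4% and 3.91%.
The 11 members with the YY1 letters had a median of -0.59 with DY131 in DU145-Esrrb cells and the 56 without them -0.44. For NRF1 these medians were -0.30 and -0.48, and for ETS -0.31 and -0.47. A match of letters is not a site.

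Other large assemblies were counted in the same way with DY131 in DU145-Esrrb cells, where 29.5% of all genes fell and 29.2% rose. Of 84 tested genes of the cytosolic ribosome, 69 fell and 7 rose, with a median of -0.63, and of 75 genes of the mitochondrial ribosome, 14 fell and 27 rose, with a median of 0.07. Of 35 proteasome genes, 14 fell and 9 rose (median -0.11). The members of the respiratory chain thus lay between the ribosomes, and after the junction correction the medians were -0.37, 0.05 and 0.18 for these groups in the same order. No test was made between the groups of genes.

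Some members have near-identical copies. More than 50% of the 50-base windows of ATP5O, NDUFA7, NDUFB8 and NDUFV2 also occur in another gene, and more than 20% do so in 12 of the 80, the others being NDUFA13, SDHA, SDHD, COX6A1, COX8A, COX6B2, ATP5J2 and UQCRH. How the authors' program treated such reads is not given in the sources used here, and the values of these 12 are uncertain. None of the windows of 38 members occur elsewhere, among them ATP5I, ATP5D, NDUFB2, NDUFC1, NDUFA1, SDHB, UQCRC1, UQCRQ and COX4I1.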

How the data were processed

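The authors made stranded libraries of polyadenylated RNA, sequenced single reads of 50 bases, trimmed them, aligned them with TopHat2 to the hg18 genome and deposited raw read counts per gene from their own program. These deposited counts of 23391 genes had not been normalized. Strand handling in the counting is not given in the sources used here. The members and lists were chosen with earlier results of these data known.

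Counts were normalized with TMM in edgeR 4.0.16 (R 4.3.3, limma 3.58.1), and cpm use effective library sizes. Genes with at least 1 cpm in 2 libraries were kept. All 8 libraries entered 1 quasi-likelihood model of 4 groups, with 5 contrasts and Benjamini-Hochberg adjustment over 13856 genes; the study used edgeR's exact test, an alternative here. Standard errors (SE) were taken from the log2 fold change and the F statistic. The study calls its replicates biological and, for the untreated cells, independent, and also says that replicates were pooled, so p-values measure the spread between these libraries.

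Structure came from GENCODE 29 on GRCh38 (22019 genes matched by RefSeq identifier, 722 by symbol, 229 by an older or current symbol, 421 not matched). These transcripts may have other ends than those counted. The smooth correction was a loess fit with a span of 0.3. Named genes are the highest and lowest member of each complex, members past both thresholds, core subunits and isoforms, together with called genes of the other lists. The steps were tested on simulated data with Python 3.11.15, pandas 2.3.3 and DESeq2 1.42.0 also in use. The values of 1 member and of some markers are not reported here. Alternatives were other tests, scalings, filters and corrections, and leaving out each library.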

Additional observations from a re-analysis of the deposited data

Results flagged for a closer look

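The log2 fold change with DY131 differed between the pools for 54 members by the interaction test of edgeR. The values below are the difference, DU145-Esrrb minus DU145-pc3.1, on the log2 scale. In complex I the 22 lower members included NDUFA11 -2.12, NDUFB2 -2.01, NDUFA1 -1.37, NDUFC1 -1.35, NDUFA13 -1.02, NDUFA2 -0.95, NDUFB8 -0.88, NDUFV2 -0.73, NDUFA9 -0.65, NDUFS4 -0.63, NDUFB1 -0.59, NDUFB7 -0.53, NDUFAB1 -0.51, NDUFS1 -0.46, NDUFS7 -0.46, NDUFS3 -0.43, NDUFB9 -0.39, NDUFB5 -0.38, NDUFA10 -0.36, NDUFS8 -0.34 and NDUFV1 -0.30. In complex V the 13 lower members were ATP5I -4.93, ATP5D -1.88, ATP5E -1.35, ATP5O -1.04, ATP5H -0.84, ATP5C1 -0.75, ATP5G1 -0.65, ATP5J -0.59, ATP5G3 -0.57, ATP5J2 -0.51, ATP5A1 -0.44, ATP5G2 -0.37 and ATP5B -0.25. The 6 lower members of complex IV were COX5A -1.27, COX7B -1.26, COX7C -0.96, COX5B -0.81, COX6B1 -0.56 and COX6C -0.30. In complex III UQCRC1 -1.06, UQCRC2 -0.77 and CYC1 -0.48 were lower, and in complex II SDHB -1.58 was. The 9 members with a higher value were UQCR10 0.61, COX4I1 0.58, NDUFS5 0.51, UQCRFS1 0.46, COX6A1 0.45, COX8A 0.42, NDUFB4 0.33, SDHC 0.24 and SDHA 0.24. Complex V had no such member. SDHA, NDUFB4, NDUFB7, NDUFS4, SDHC, NDUFS7, NDUFS8, NDUFS3, ATP5B, NDUFA10, NDUFB5, NDUFV1 and COX6C were each no longer called under 5 to 10 of the alternatives, which in each case included leaving out 3 or more of the single libraries. Groups of 2 libraries are too small to look for single outlying libraries.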

How the results depend on the processing

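Falls with DY131 in DU145-Esrrb cells kept their direction over the members as a whole. The median of -0.44 was -0.50 with library size alone, -0.47 with at least 10 counts in every library, -0.28 after the junction correction, -0.32 with that correction on coding windows (chosen after seeing the data) and -0.25 after the length and GC correction, and between -0.46 and -0.42 without single libraries. After the same 3 corrections the median was -0.25, -0.29 and -0.27 for Esrrb in DY131-treated cells (-0.40 to -0.34 without single libraries) and -0.22, -0.27 and -0.27 for the interaction (-0.42 to -0.33). For Esrrb in untreated cells it ran from -0.057 to 0.0062 without single libraries, and for DY131 in DU145-pc3.1 cells from -0.13 to -0.03. With a fold change threshold of 1 on the log2 scale, the members called were 0, 2, 14, 16 and 13 in the 5 comparisons (untreated, DY131 in DU145-pc3.1, DY131 in DU145-Esrrb, DY131-treated, interaction). The count of 0 stands beside 10 members with an unadjusted p under 0.05 in edgeR (16.6% of all genes) and 6 in DESeq2 (8.89% of all genes), both without a fold change threshold. For Esrrb in untreated cells, 1 member was called with DESeq2, 5 with only the groups compared and 0 to 6 without single libraries. Of all genes, 0.895% rose and 1.39% fell with DESeq2 and 3.83 and 5.07% with only the groups compared. Without single libraries 0.406 to 4.98% rose and 0.61 to 6.24% fell. For DY131 in DU145-pc3.1 cells, 9 were called with DESeq2, 14 with only the groups compared and 9 to 27 without single libraries. There were 9 left without DU145-pc3.1 replicate 2 and 12 without replicate 1. Of all genes, 13.8% rose and 11.5% fell with DESeq2 and 16.4 and 14.3% with only the groups compared. Without single libraries 13 to 21.4% rose and 11.8 to 20.2% fell. Without single libraries the calls were 58 to 70 for DY131 in DU145-Esrrb cells, 56 to 68 in DY131-treated cells and 44 to 61 for the interaction. Of all genes in these fits, 22.8 to 32.3% rose and 23.4 to 32.8% fell with DY131 in DU145-Esrrb cells. In DY131-treated cells 17.7 to 25.7% were higher and 19.4 to 26.3% lower, and in the interaction 9.88 to 19.7% and 13.3 to 21.7%. The junction correction turned the sign of NDUFS1 to 0.031, ATP5G1 to 0.086 and ATP5J2 to 0.37 with DY131 in DU145-Esrrb cells, where the length and GC correction turned NDUFB7 to 0.11 and NDUFB9 to 0.036. In DY131-treated cells the junction correction turned ATP5A1 to 0.085, ATP5J2 to 0.14, NDUFS1 to 0.042, NDUFS7 to 0.11, NDUFS8 to 0.26, NDUFV1 to 0.051, NDUFB4 to -0.021 (on coding windows -0.028) and CYCS to -0.25 (on coding windows -0.19), and the length and GC correction turned UQCRQ to 0.27. In the interaction the junction correction turned ATP5J2 to 0.41, NDUFS1 to 0.059, NDUFS3 to 0.00564, NDUFS7 to 7.63e-05, NDUFS8 to 0.29 and NDUFV1 to 0.080. The cause was not tested. Of the other values of single members under the alternatives, 6652 of 7235 kept their direction and their side of the threshold or, where not called, moved by less than 1 SE. With DY131 in DU145-Esrrb cells, the calls lost under 4 alternatives or more were those of COX8A, NDUFB4, NDUFS6, NDUFB9, NDUFB7, NDUFB6, SDHC and ATP5L.

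Replicate numbers, taken from the sample titles, are known for 6 libraries. The column headings of the counts carry other numbers for some of these libraries, and those were not used. Libraries of equal number by title deviated from their group means with correlations of 0.09, 0.02 and -0.07. These few values show no link by title, and whether libraries share a batch or culture was not tested. With a block for the replicate number in these 6 libraries, 2 members were called for Esrrb in untreated cells and 21 for DY131 in DU145-pc3.1 cells, against 2 and 18 without it. Of all genes, 1.07% rose and 1.82% fell with the block for Esrrb in untreated cells, and 1.02 and 1.67% without it. For DY131 in DU145-pc3.1 cells these shares were 18.4 and 17.2% with it and 17.8 and 16.9% without it. With 2 libraries a group, members at a few counts, such as NDUFA4L2 and COX6B2, are measured poorly.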
